A study of Mus musculus with 30 samples.

Results

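The mRNAs of 61 genes named for deubiquitinases were examined in spermatogonial stem cell (SSC) lines of the mouse. They were taken by symbol: every gene with an expression value or an mRNA half-life whose symbol starts with Usp and a digit, with Otud, with Otub, or with Uchl and a digit, leaving out symbols that end in y. The rule found 61 of 14558 genes. They comprised 49 Usp genes (ubiquitin-specific proteases), 7 Otud and 2 Otub genes (ovarian tumour domain proteases) and 3 Uchl genes (ubiquitin C-terminal hydrolases). One of the 49, *Usp6nl*, encodes a GTPase-activating protein for Rab proteins and no deubiquitinase, so that 60 members encode deubiquitinases or their close relatives. Expression was available for 59 members, half-lives for 37, and both for 35. *Otud6b* and *Usp14* had half-lives only, and their expression is not analysed here.

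Ubiquitin is a small protein that is joined to lysines of other proteins, singly or in chains, and the kind of chain decides whether the protein is degraded by the proteasome, moved between membranes or changed in activity. Deubiquitinases cut ubiquitin off again. They recycle ubiquitin at the proteasome, edit chains, and reverse signals on histones, receptors and DNA repair proteins. In the testis the family is best known for UCHL1, also called PGP9.5, which is abundant in spermatogonia and serves as their marker.

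SSC lines are cultures of the stem cells of spermatogenesis, here grown on mouse embryonic fibroblast feeders and separated from them before RNA was extracted. Both lines used here carried an allele of *Nanos2*, the gene of an RNA-binding protein of SSCs, which encodes NANOS2 with an N-terminal tag that includes EGFP. One line was heterozygous (*Nanos2* TAG/+, called the TAG/+ line) and the other homozygous (*Nanos2* TAG/TAG, called the TAG/TAG line). *Nanos2* itself had 27.5 FPKM in the TAG/+ line and 23.8 in the TAG/TAG line, so neither line lacked it. Each genotype was thus represented by 1 line, which served for both assays. The paper treated the RNA-seq libraries of both lines as biological replicates and averaged their FPKM. RNA-seq was available as 1 library of ribosomal RNA-depleted total RNA per line, in FPKM (fragments per kilobase of transcript, scaled to a depth set for each library). Half-lives came from SLAM-seq, in which newly made RNA is labelled with 4-thiouridine and the label is chased in medium without 4-thiouridine. The loss of T-to-C conversions from the 3′ ends of mRNAs is then followed. The chase was sampled at 6 times, from 0 to 1440 min, in 12 libraries per line, from which the authors fitted 1 half-life per transcript and line.

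The FPKM values had been scaled to 10908790 reads in the TAG/+ library and 11738620 in the TAG/TAG library, and whole read numbers could be recovered for every member. The recovered reads summed to 10978117 in the TAG/+ library and 11656450 in the TAG/TAG library, so the scale was not exactly these sums. The columns of FPKM bear only the short names GG and Gp, which were read as TAG/TAG and TAG/+, and every direction in FPKM rests on that reading. The half-lives were assigned by the line named for each table, while the labels of the TAG/+ samples call their table CTL and those of the TAG/TAG samples call theirs EXP, and every direction in half-life rests on that match. With 1 library and 1 fitted half-life per line there was no replicate check, and no p-value is given. Intervals quoted for FPKM ratios are exact 95% intervals of the ratio of the reads, which cover counting error only. No error or depth accompanied the half-lives. RNA of the TAG/+ library was extracted with QIAzol and that of the TAG/TAG library with Trizol, so genotype, line and reagent differed together and cannot be told apart. In bulk RNA, fewer cells of a type and less RNA per cell cannot be told apart either. Of 9 fibroblast genes, 8 had a higher FPKM in the TAG/TAG line and 1 a lower one, and 49.5% of all genes had a lower one. The summed FPKM of the 9 was 355 in the TAG/+ line and 469.6 in the TAG/TAG line, and none was at 0. Of these sums *Fn1* alone held 254 and 280 FPKM, while *Dcn*, *Thy1* and *Vim* were over 2-fold higher in the TAG/TAG line. Of 4 genes of differentiating and meiotic germ cells, 3 had a lower FPKM in the TAG/TAG line, beside the same 49.5%, with sums of 64.5 and 52.9. Only *Sycp3* among them was past 2-fold, with 4.59 FPKM in the TAG/+ line, from 54 reads, and 0.632 in the TAG/TAG line, from 8 reads. The 10 markers of undifferentiated spermatogonia, *Uchl1* among them, summed to 1539 and 1771 FPKM. Of these markers, 6 had a lower FPKM in the TAG/TAG line and 4 a higher one, with *Ret* and *Etv5* over 2-fold higher. The median log2 ratio of the 10 was -0.10. The part of these differences in the results below was not tested.

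An RNA motif of 7 bases that is linked to NANOS2 can be spelled AUGAAAU or AUGAAUU or AUUAAAU or AUUAAUU, and it was searched on the sense strand of 1 annotated 3′ UTR per gene. Of the 61 members, 29 had at least 1 match, beside 38.1% of all 13167 genes with an annotated coding transcript. The members held 66 matches, of which 65 could be printed and equalled the genome sequence. Those below are from 4 of the 8 members with the shortest half-lives (*Usp45*, *Usp27x*, *Usp10* and *Usp32*), from *Usp15*, another of the 8, which had the longest 3′ UTR, from *Uchl5*, which had 2 matches in a 3′ UTR of 577 bases, and from 2 members with long half-lives (*Usp9x* and *Usp39*). Sequences run 5′ to 3′ on the strand of the gene, and positions are on GRCm38 (GENCODE M21 transcripts). Every site lies within the 3′ UTR in the exon given, and capitals mark 1 match per line. The first *Usp45* line also holds another match, which overlaps the marked one, and both were counted.
Usp45, chr4:21834505-21834527, plus strand, exon 18: aaaaaaaaAUUAAUUaauuugac
Usp45, chr4:21837378-21837400, plus strand, exon 18: cugaagauAUGAAAUgucuucgu
Usp27x, chrX:7372968-7372990, minus strand, exon 1: uuugugcuAUGAAAUgcaguauu
Usp10, chr8:119957081-119957103, plus strand, exon 14: uugugaaaAUGAAUUuuaucuuu
Usp32, chr11:84984727-84984749, minus strand, exon 34: ugguuguaAUUAAUUuuuuaauu
Usp15, chr10:123113218-123113240, minus strand, exon 22: cuguuuugAUGAAUUauguuuuc
Usp15, chr10:123105242-123105264, minus strand, exon 22: ucuugcucAUGAAAUucacaauc
Uchl5, chr1:143806773-143806795, plus strand, exon 11: uggacaccAUUAAAUaaaaggaa
Usp9x, chrX:13169798-13169820, plus strand, exon 45: aaaacuacAUUAAUUuucuuguu
Usp39, chr6:72318778-72318800, minus strand, exon 13: ugcgauggAUUAAAUauccuccu
Among the 65 matches, 23 read AUUAAAU, 17 AUGAAAU, 13 AUGAAUU and 12 AUUAAUU. A match describes the letters of the annotated 3′ UTR and not the binding of NANOS2, which was not analysed here.

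Most deubiquitinase genes were expressed in both lines. FPKM was at least 1 in both lines for 56 of 59 members, beside 82.6% of all 13904 genes with FPKM. It was at least 10 in both lines for 38 members and at least 100 for 11. The median FPKM of the members was 29.3 in the TAG/+ line and 22.4 in the TAG/TAG line, and that of all genes was 10.2 and 10.5. The FPKM of the deubiquitinase mRNAs summed to 4089 in the TAG/+ line and 3840.5 in the TAG/TAG line. *Uchl1*, *Usp22* and *Usp19* together held 37.8% and 40.3% of these sums, and *Uchl1* alone held 19.7% and 21.4%. At the other end, *Usp13*, *Usp17lc* and *Usp43* were under 1 FPKM in the TAG/+ line, and no member was listed at 0.

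**Figure D1:**
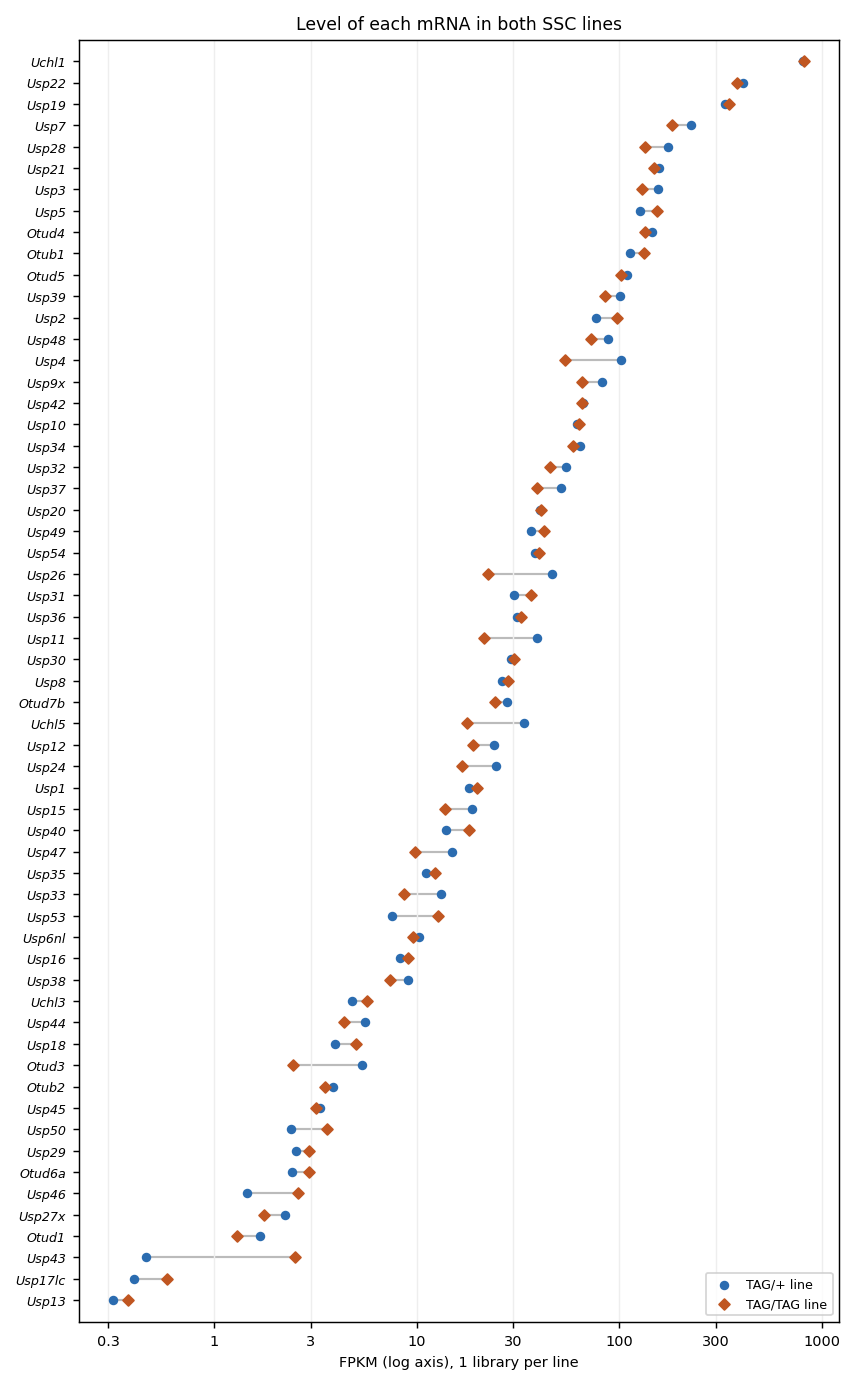
FPKM (log axis) of the 59 members with expression values, sorted by the mean of both lines, with 1 point for the TAG/+ library (blue circle) and 1 for the TAG/TAG library (orange diamond). Levels run from 0.317 FPKM (*Usp13*, TAG/+) to 820.3 FPKM (*Uchl1*, TAG/TAG), and most pairs of points lie close together.

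Half-lives of the members lay around those of all transcripts. The median of the 37 members was 237 min in the TAG/+ line and 229.9 min in the TAG/TAG line, and that of all 5806 transcripts was 224 and 226 min. In both lines 11 members were below the median of all transcripts, beside 39.8% of all transcripts, and 14 members were above it, also beside 39.8% of all. The other 12 of the 37 changed sides between the lines, beside 1190 of all 5806 transcripts. Of the members with FPKM, 59.3% had half-lives, beside 37.1% of all genes with FPKM. Members with a half-life had a median FPKM (mean of both lines) of 40.9, and those without one of 5.09. *Usp19*, *Usp3* and *Otub1* were the members over 100 FPKM that had no half-life. No member shared both its half-lives with another transcript, which 22 of the 5806 did.

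*Uchl1* was the most abundant member and the most stable of those with half-lives. The FPKM of *Uchl1* was 806 in the TAG/+ line, from 6319 reads, and 820.3 in the TAG/TAG line, from 6923 reads. Its half-life was 670.1 min in the TAG/+ line and 702 min in the TAG/TAG line, above 98.5% and 97.8% of transcripts, respectively. The values of the TAG/TAG line were 1.02-fold those of the TAG/+ line in FPKM and 1.05-fold in half-life. Its 3′ UTR, of 306 bases, had no motif match. The other Uchl mRNAs were far less abundant. *Uchl3*, which encodes a close relative of UCHL1, had 4.80 and 5.65 FPKM in the TAG/+ and TAG/TAG lines, from 71 and 90 reads. *Uchl5* encodes a hydrolase of the proteasome and of the INO80 chromatin remodeller. It had 33.7 FPKM in the TAG/+ line, from 338 reads, and 17.7 in the TAG/TAG line, from 191 reads, a ratio of 0.525 (95% interval 0.437 to 0.629). Neither had a half-life.

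Proteasome-bound deubiquitinases trim ubiquitin from proteins that are about to be degraded. For *Usp14*, the partner of *Uchl5* in this role, the half-life was 264 min in the TAG/+ line and 294 min in the TAG/TAG line, above the median of all transcripts in both. Among the genes of their partners at the proteasome, *Adrm1*, which recruits UCHL5, had 97.4 and 126 FPKM, and the ubiquitin receptor gene *Psmd4* had 131 and 135 FPKM. The FPKM of *Psmd14*, the essential deubiquitinase of the proteasome lid and of another enzyme class, was 32.0 in the TAG/+ line, from 241 reads, and 11.4 in the TAG/TAG line, from 92 reads, a ratio of 0.355. FPKM of *Uchl5* and *Psmd14* was thus lower in the TAG/TAG line, and that of the 2 partner genes was not.

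Histone deubiquitinases were represented by 7 members, led by *Usp22*, the catalytic subunit of the deubiquitinating module of the SAGA coactivator. *Usp22* had 407 FPKM in the TAG/+ line and 381 in the TAG/TAG line, and its half-life was 295 and 286 min. Both values were thus close between the lines, with ratios of 0.936 and 0.967. The next were *Usp21* with 158 and 148 FPKM and *Usp3* with 155 and 130.3 FPKM, both of which act on histone H2A. The half-life of *Usp21* was 276 min in the TAG/+ line and 369.7 min in the TAG/TAG line, 1.34-fold longer in the latter. *Usp49*, which acts on H2B, had 36.6 and 42.3 FPKM and half-lives of 244 and 174 min. *Usp49* shares 4392 of its 8581 exonic bases with *Gm20517* on the same strand, so its reads are uncertain. *Usp16*, which removes ubiquitin from H2A before mitosis, had 8.29 and 9.03 FPKM and half-lives of 187 and 151 min. *Usp44*, known from H2B and the mitotic checkpoint, had 5.54 and 4.36 FPKM. *Usp27x* can take the place of *Usp22* with the adaptors ATXN7L3 and ENY2, and it was the least abundant of the group. It had 2.24 FPKM in the TAG/+ line, from 96 reads, and 1.76 in the TAG/TAG line, from 81 reads. The half-life of *Usp27x* was 97.8 min in the TAG/+ line and 53.5 min in the TAG/TAG line, below all but 6.32% and 0.982% of transcripts. The adaptor gene *Atxn7l3* had 19.2 and 19.4 FPKM and half-lives of 214 and 195 min, and *Eny2* half-lives of 297 and 373 min. *Usp22* and *Usp27x*, which share these adaptors, were thus far apart in both level and half-life.

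Deubiquitinases of DNA repair, replication and checkpoints were 9 members, all with FPKM and half-lives. FPKM was lower in the TAG/TAG line for 7 of the 9, with a median log2 ratio of -0.32, beside 0.01 over all genes, and 49.5% of all genes had a lower FPKM there. *Usp7*, which controls MDM2 and p53, had 227 FPKM in the TAG/+ line and 182 in the TAG/TAG line, with half-lives of 174 and 247 min. *Usp28*, its counterpart in the control of p53 and MYC, had 175 and 134 FPKM. The half-life of *Usp28* was 172 min in the TAG/+ line and 324 min in the TAG/TAG line, 1.89-fold longer in the latter. *Usp48*, which removes ubiquitin that BRCA1 places on H2A, had 88.3 and 72.8 FPKM. Its half-life was 154 and 268 min, 1.74-fold longer in the TAG/TAG line. For these 3, and for *Usp47* of the same group, the half-life was longer and FPKM lower in the TAG/TAG line. In *Usp37*, *Usp11* and *Usp45* both were lower there, and in *Usp1* and *Usp10* FPKM was higher. The 95% intervals of the FPKM ratio included 1 for *Usp45* (0.726 to 1.26), *Usp1* (0.948 to 1.25) and *Usp10* (0.936 to 1.12). For the rest of the group they lay below 1.

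*Usp37* belongs to the same group and acts on cyclin A in the cell cycle. Its FPKM was 51.8 in the TAG/+ line and 39.1 in the TAG/TAG line, and its half-life was 312 and 188 min, 1.66-fold shorter in the TAG/TAG line. *Usp11*, which acts on BRCA2, had the second longest mean half-life of the members with values. Its half-life was 453 min in the TAG/+ line and 415 min in the TAG/TAG line. Its FPKM was 39.1 in the TAG/+ line, from 1195 reads, and 21.5 in the TAG/TAG line, from 707 reads, a ratio of 0.550 (95% interval 0.5003 to 0.604). The difference in FPKM of *Usp11* was thus larger than counting error, whereas its half-lives differed by 1.09-fold. *Usp47*, which acts on DNA polymerase beta, had 15.02 and 9.82 FPKM and half-lives of 249.6 and 307 min. *Usp1*, which acts on FANCD2 and PCNA, had 18.2 and 19.8 FPKM and half-lives of 238 and 210.3 min. Its activating partner gene *Wdr48* had 115 and 88.7 FPKM and half-lives of 233 and 230.4 min, so the mRNA of the partner was several times as abundant as that of the enzyme. *Usp10*, which acts on p53 and binds the stress granule protein G3BP, had 62.0 and 63.4 FPKM. Its half-life was short in both lines, at 108 min in the TAG/+ line and 127 min in the TAG/TAG line. *Usp45*, which acts on the repair nuclease ERCC1, had 3.32 and 3.17 FPKM, from 108 and 111 reads. Its half-life was 92.7 min in the TAG/+ line and 55.8 min in the TAG/TAG line. The mean of both, 74.2 min, was the shortest of the members, and *Usp45* had 6 motif matches in a 3′ UTR of 3505 bases.

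Deubiquitinases of membrane traffic and organelles were 7 members, of which 4 had half-lives. *Usp19*, part of which is anchored in the endoplasmic reticulum, was the third most abundant member, with 333 FPKM in the TAG/+ line and 348 in the TAG/TAG line. *Usp9x*, an X-linked enzyme of endosomes, adhesion and polarity, had 82.0 and 65.9 FPKM, and a near-identical gene on the Y chromosome may share its reads. The half-life of *Usp9x* was 337 min in the TAG/+ line and 347 min in the TAG/TAG line, the third longest mean. *Usp32*, which acts on late endosomes, had 54.6 and 45.5 FPKM and a short half-life of 111 and 106 min in the respective lines. *Usp9x* and *Usp32* each had 3 motif matches and stood at opposite ends of the half-lives. *Usp8*, which sorts receptors at endosomes, had 26.4 and 28.3 FPKM and half-lives of 237 and 299.9 min. *Usp20* and *Usp33* are paralogs that act on receptor recycling. *Usp20* had 40.7 and 41.0 FPKM and half-lives of 279.8 and 322 min, and *Usp33* had 13.1 and 8.70 FPKM, a ratio of 0.662 (95% interval 0.553 to 0.793). *Usp30*, which opposes mitophagy at the outer mitochondrial membrane, had 29.3 and 30.2 FPKM.

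Among 5 members of signalling pathways, FPKM was lower in the TAG/TAG line for 4, beside 49.5% of all genes, and lay within 1.5-fold between the lines for each. *Otud5*, which acts on TRAF3, was the most abundant, with 109.7 FPKM in the TAG/+ line and 102 in the TAG/TAG line. Its half-life was 205 and 210.2 min. *Usp34*, which acts on axin in Wnt signalling, had 63.8 and 59.1 FPKM and half-lives of 312 and 269 min. Its exons share 2137 bases with *Ahsa2* on the opposite strand, and it is not stated whether strand was used in counting. *Otud7b*, an enzyme for Lys11-linked chains, had 27.9 and 24.2 FPKM, and its half-lives of 228 and 225 min were close to the median of all transcripts. *Usp15*, which acts on SMAD proteins in TGF-beta signalling, had 18.7 and 13.8 FPKM. The half-life of *Usp15* was 169.9 min in the TAG/+ line and 118 min in the TAG/TAG line, and its 3′ UTR of 8499 bases held 6 motif matches. *Usp18*, which removes the ubiquitin-like ISG15 and is induced by interferon, had 3.94 and 5.01 FPKM, from 38 and 52 reads. Its 95% ratio interval of 0.821 to 1.99 included 1.

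*Usp5* takes apart free ubiquitin chains and so returns single ubiquitin to the cell. It had 126 FPKM in the TAG/+ line and 153 in the TAG/TAG line, a ratio of 1.21 (95% interval 1.14 to 1.29). Its half-life was nearly equal in both lines, at 341 and 342 min. Its paralog *Usp13* had 0.317 and 0.375 FPKM, from 11 and 14 reads, and was the least abundant member. Of the genes that supply ubiquitin itself, the polyubiquitin gene *Ubb* had 1604 FPKM in the TAG/+ line and 1637 in the TAG/TAG line, above every member, and half-lives of 510.4 and 547 min. *Rps27a*, which encodes a fusion of ubiquitin with a ribosomal protein, had 45.4 and 24.4 FPKM. Of the ubiquitin-activating enzymes, *Uba1* had 522 and 497 FPKM and *Uba6* 22.5 and 24.1 FPKM.

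*Usp4* and *Usp39* act in splicing, the first by editing ubiquitin on a spliceosome protein and the second as an inactive relative that binds the tri-snRNP. *Usp39* had 101 FPKM in the TAG/+ line and 84.9 in the TAG/TAG line, and half-lives of 274 and 380.1 min. *Usp4* had 102 FPKM in the TAG/+ line, from 2114 reads, and 54.3 in the TAG/TAG line, from 1207 reads, a ratio of 0.531 (95% interval 0.494 to 0.570). Its half-life was 255 min in the TAG/+ line and 289 min in the TAG/TAG line. FPKM of *Usp4* was lower in the TAG/TAG line by more than counting error, while its half-life there was 1.14-fold longer.

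The Otub and Otud families were led by *Otud4*, *Otub1* and *Otud5*. *Otub1*, which also blocks a ubiquitin-conjugating enzyme without cutting, had 113 FPKM in the TAG/+ line and 133 in the TAG/TAG line, and its paralog *Otub2* had 3.85 and 3.54 FPKM. *Otud4* had 146 and 133 FPKM and half-lives of 247 and 229.9 min. *Otud6b* had half-lives of 175 and 186 min. *Otud3* had 5.39 FPKM in the TAG/+ line, from 98 reads, and 2.45 in the TAG/TAG line, from 48 reads. The ratio was 0.455 (95% interval 0.315 to 0.649), and of the Otud and Otub genes it was the only one past 2-fold. *Otud1* and the X-linked *Otud6a* were near the lower end, with 1.68 and 2.42 FPKM in the TAG/+ line and 1.29 and 2.93 in the TAG/TAG line. *Otud6a* rested on 23 and 30 reads.

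The remaining 18 members are on no list of roles. *Usp2*, which is known from circadian rhythm and cell cycle control, was the most abundant, with 77.0 FPKM in the TAG/+ line and 97.7 in the TAG/TAG line and half-lives of 239 and 198 min. *Usp36*, a nucleolar enzyme, had 31.4 and 32.6 FPKM and half-lives of 201 and 159 min, and its paralog *Usp42* had 66.3 and 65.3 FPKM. *Usp12* and *Usp46*, paralogs that are activated by WDR48 and WDR20, had 24.2 and 1.45 FPKM in the TAG/+ line and 19.0 and 2.59 in the TAG/TAG line. The ratio of *Usp46* was 1.79 (95% interval 1.19 to 2.72), from 38 and 73 reads. The partner gene *Wdr20* had 36.7 and 41.3 FPKM, and *Dmwd*, a relative of *Wdr20*, had 91.4 and 104 FPKM. Both levels were above those of *Usp12* and *Usp46*. *Usp31* had 30.2 and 36.6 FPKM and half-lives of 211 and 242 min. *Usp38* had 9.04 and 7.37 FPKM and half-lives of 153 and 148 min, with 4 motif matches in a 3′ UTR of 1086 bases. *Usp40* had 13.9 and 18.1 FPKM, and *Usp35* had 11.1 and 12.3 FPKM. Those 4 differed by less than 1.5-fold between the lines in FPKM.

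Low levels or large differences marked the others. *Usp53* had 7.57 FPKM in the TAG/+ line and 12.7 in the TAG/TAG line, a ratio of 1.68 (95% interval 1.40 to 2.01). *Usp50* had 2.40 and 3.61 FPKM, from 34 and 55 reads. It shares 204 of its 3105 exonic bases on the same strand with *Gm10774*, which had 90.3 and 118 FPKM, so the reads of *Usp50* are uncertain. *Usp29*, an imprinted gene that is expressed from the paternal allele, had 2.53 and 2.94 FPKM, and 2582 of its exonic bases lie opposite *Zim3*. *Usp29* rested on 88 and 110 reads. *Usp17lc* had 0.402 and 0.582 FPKM from 9 and 14 reads, and it belongs to a cluster of near-identical genes among which reads can be split, so its value is uncertain. *Usp6nl*, the member that encodes no deubiquitinase, had 10.3 and 9.60 FPKM and half-lives of 115 and 58.1 min. *Usp24*, *Usp26*, *Usp43* and *Usp54* are described with the differences between the lines.

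Most members differed by less than 1.5-fold in FPKM between the lines. Of the 59 members, 36 lay within 1.25-fold and 49, or 83.1%, within 1.5-fold, beside 57.8% of all genes within 1.5-fold. Among the 57 members whose reads summed to 50 or more the share within 1.5-fold was 82.5%, and among all genes with that many it was 62.7%. FPKM was lower in the TAG/TAG line for 32 members, beside 49.5% of all genes. The median log2 ratio was -0.09 for the members and 0.01 for all genes. Across members, Spearman's rho of FPKM in both lines was 0.982, and across all genes it was 0.927. By counting error alone the 95% interval of the ratio lay above 1 for 10 of the 59 members, beside 34.8% of all 13884 genes with recovered reads, and below 1 for 26 members, beside 33.6%. These intervals do not include variation between cultures, and they narrow with the number of reads.

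Past 2-fold, on the scale of log2(FPKM + 0.1), 1 member was higher in the TAG/TAG line, beside 13.5% of all genes, and 2 were lower, beside 9.59% of all genes. The one that was higher was *Usp43*, a paralog of *Usp31*. It had 0.460 FPKM in the TAG/+ line, from 14 reads, and 2.51 in the TAG/TAG line, from 82 reads, a ratio of 5.44 (95% interval 3.07 to 10.4). *Usp43* was among the 6 least abundant members in both lines, and 609 of its 4745 exonic bases lie opposite another transcript. The 2 that were lower were *Otud3*, described above, and *Usp26*. *Usp26* is an X-linked gene without introns in its coding sequence that is expressed in the testis. It had 46.5 FPKM in the TAG/+ line, from 2092 reads, and 22.4 in the TAG/TAG line, from 1087 reads, a ratio of 0.483 (95% interval 0.448 to 0.520). Of these 3, *Usp26* had by far the most reads. *Uchl5*, *Usp4* and *Usp11*, at ratios of 0.550 or less, were the next lowest. The 6 X-linked members had a median log2 FPKM ratio of -0.32 with 5 of them lower in the TAG/TAG line, whereas the 576 X-linked genes had a median of -0.06 with 53.0% lower.

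**Figure D2:**
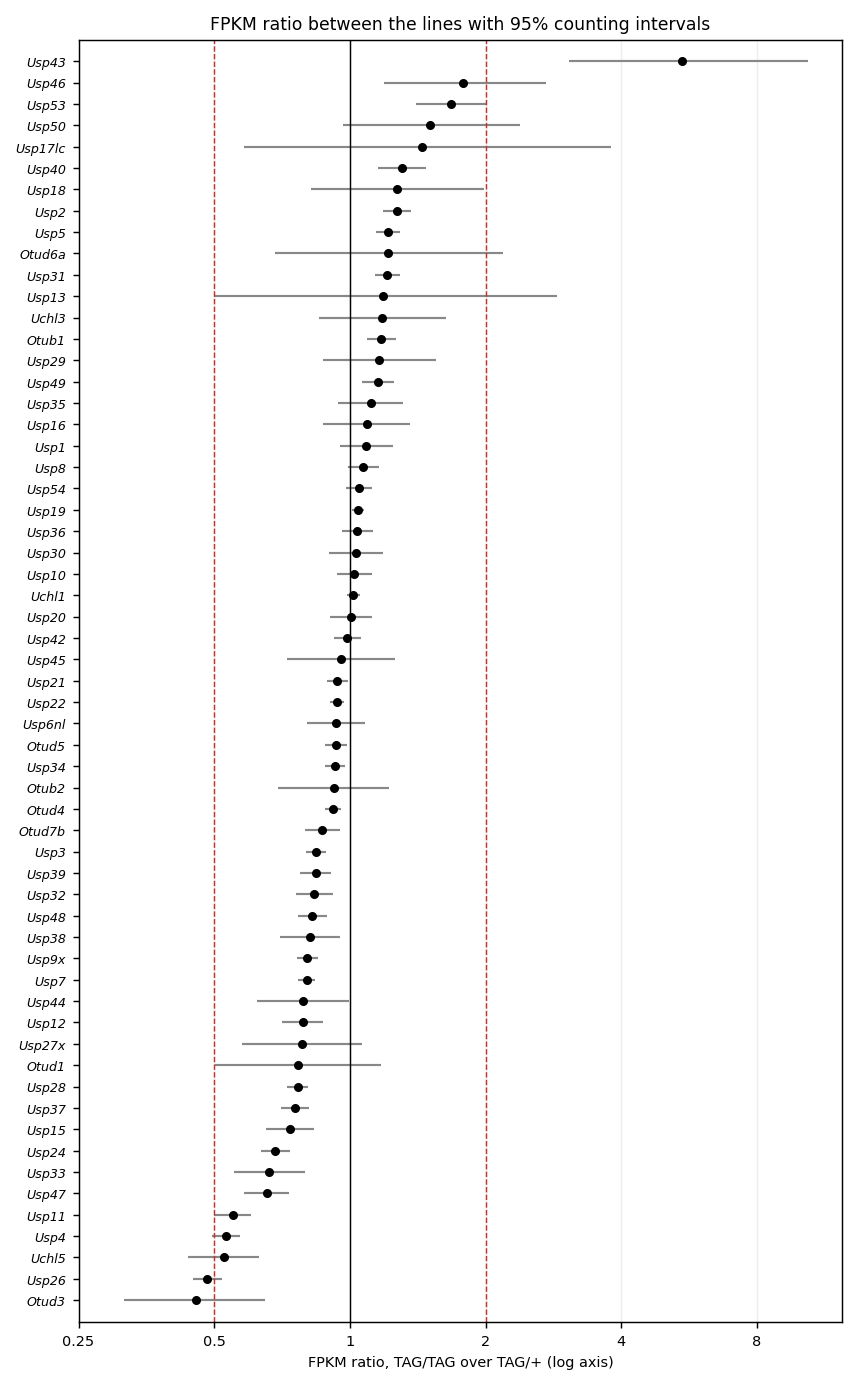
Ratio of FPKM in the TAG/TAG line to that in the TAG/+ line for the 59 members (points, log axis), sorted by ratio, with exact 95% intervals of the recovered reads (bars, counting error only). The solid line marks equal FPKM and the dashed lines 2-fold, which *Usp43* passed above and *Usp26* and *Otud3* passed below.

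Past 1.25-fold, half-lives of the members differed between the lines about as often as those of all transcripts. Of the 37 members, 21 lay within 1.25-fold, a share of 56.8%, beside 57.5% of all transcripts. Spearman's rho of the half-lives in both lines was 0.659 across members and 0.770 across all transcripts. The half-life was longer in the TAG/TAG line for 18 members and shorter for 19, with a median log2 ratio of -0.02, beside 0.04 over all transcripts. Past 1.5-fold, 3 members were longer in the TAG/TAG line, beside 10% of all transcripts, and 6 were shorter, beside 10.7%. The 3 were *Usp24*, *Usp28* and *Usp48*, and the 6 were *Usp54*, *Usp6nl*, *Usp27x*, *Usp45*, *Usp37* and *Usp26*.

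*Usp24* had the largest difference in the longer direction. Its half-life was 174 min in the TAG/+ line and 344 min in the TAG/TAG line, 1.97-fold longer, while its FPKM was 24.6 and 16.8 in the same order. FPKM was lower in the TAG/TAG line for all 3 members with a half-life over 1.5-fold longer there. It was also lower for 5 of the 6 with one over 1.5-fold shorter, beside the 49.5% of all genes. Among these 5, the 95% ratio intervals of *Usp6nl* (0.805 to 1.08), *Usp27x* (0.576 to 1.07) and *Usp45* (0.726 to 1.26) included 1. Those of *Usp37* (0.703 to 0.811) and *Usp26* (0.448 to 0.520) lay below 1, as did those of the 3 with a longer half-life. FPKM lower by more than counting error thus occurred with either direction. *Usp54* had the largest difference of all. Its half-life was 276 min in the TAG/+ line and 98.2 min in the TAG/TAG line, 2.81-fold shorter, while its FPKM was 38.4 and 40.2. For *Usp54* the level thus differed by 1.05-fold where the half-life differed most. *Usp26* was lower in both measures, with half-lives of 228 min in the TAG/+ line and 146 min in the TAG/TAG line, 1.56-fold shorter. *Usp6nl*, *Usp27x* and *Usp45* were the members with the shortest mean half-lives, and in each the half-life was at least 1.66-fold shorter in the TAG/TAG line. Across the 35 members with both measures, Spearman's rho of the log2 ratios of FPKM and half-life was -0.136, and across the 5152 genes with both it was 0.004.

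**Figure D3:**
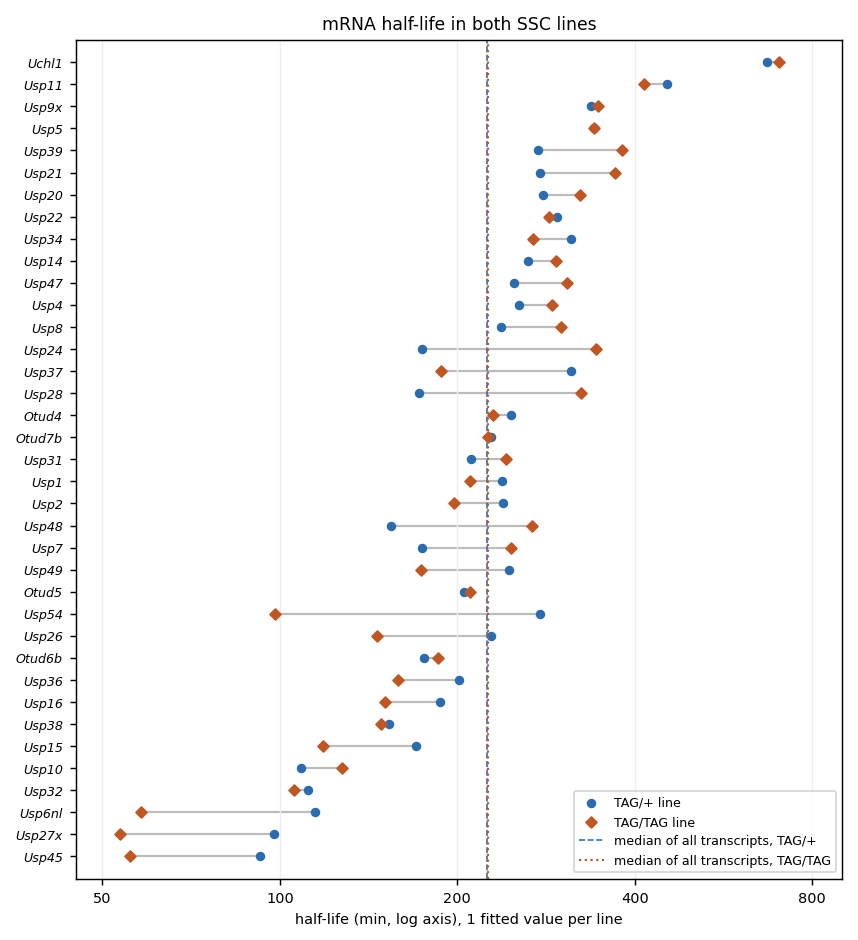
Half-life (min, log axis) of the 37 members with values, sorted by the mean of both lines, with 1 fitted value for the TAG/+ line (blue circle) and 1 for the TAG/TAG line (orange diamond). Vertical lines mark the medians of all transcripts, 224 min (dashed) and 226 min (dotted). *Usp54* has the widest gap, and the 3 members with the shortest means lie lower in the TAG/TAG line.

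The 8 longest mean half-lives belonged, in falling order, to *Uchl1*, *Usp11*, *Usp9x*, *Usp5*, *Usp39*, *Usp21*, *Usp20* and *Usp22*. The 8 shortest belonged, from the shortest, to *Usp45*, *Usp27x*, *Usp6nl*, *Usp32*, *Usp10*, *Usp15*, *Usp38* and *Usp16*. The ranges over the lines of neighbours in these orders overlapped in part: *Usp9x*, *Usp5*, *Usp39* and *Usp21* lay between 274 and 380.1 min and could not be ordered, and neither could *Usp45* and *Usp27x*. *Uchl1* and *Usp11* were above every other member in both lines. The median FPKM of the 8 longest-lived was 116 and that of the 8 shortest-lived 9.30. Across the 35 members with both values, Spearman's rho of half-life and FPKM (means of both lines) was 0.519, and across all 5152 genes with both it was 0.511. The points share the libraries of the same lines. *Usp10* and *Usp32*, with short half-lives, had FPKM above the median of the members, and *Usp11* had a lower FPKM than *Usp10* at more than 3 times its half-life.

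Median half-lives were shorter for members with a motif match than for those without, and so they were over all transcripts. Of the 8 shortest-lived members 7 had a match, with 22 matches in all, and of the 8 longest-lived 2 had one, with 4 in all. *Usp16* was the short-lived member without a match. The 19 members with a match had a median half-life of 205 min in the TAG/+ line and 210.2 min in the TAG/TAG line, and the 18 without one 244 and 277 min. For all transcripts the medians were 196 and 199.8 min with a match and 245 and 247 min without. The 10 members with 1 or 2 matches had medians of 202 min in the TAG/+ line and 247 min in the TAG/TAG line. The 9 members with 3 or more matches had medians of 205 and 174 min, and the 587 transcripts with as many had 169.6 and 174 min. Among members the median was thus no lower with 3 or more matches than with 1 or 2 in the TAG/+ line, and in the TAG/TAG line those with 1 or 2 matches were above the median of all transcripts. Matches are more frequent in longer 3′ UTRs. The median 3′ UTR was 1860 bases long in the 8 shortest-lived members and 593 in the 8 longest-lived. Per kilobase of 3′ UTR, members held 0.588 matches and all genes 0.494. Spearman's rho of mean half-life across members was -0.382 with the number of matches and -0.245 with 3′ UTR length, and across all transcripts it was -0.279 and -0.275. The part of 3′ UTR length and expression in this pattern was not tested.

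**Figure D4:**
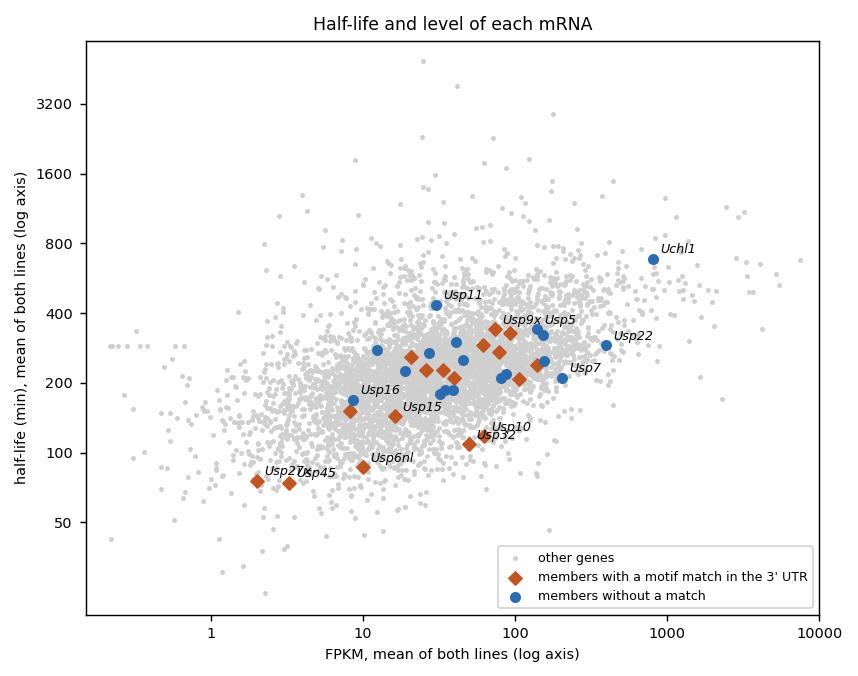
Half-life (min) against FPKM, both as means of both lines on log axes, for the 35 members with both values and the other genes with both (grey), 5152 in all. Members with a motif match in the annotated 3′ UTR (orange diamonds) include all but 1 of the 8 shortest-lived members, and *Uchl1*, at the upper right, has no match.

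Of the 3 members with a half-life over 1.5-fold longer in the TAG/TAG line, 2 had no match, and of the 6 with one over 1.5-fold shorter, 3 had none, *Usp54* among them. Of the members with half-lives 48.6% had no match, and of all such transcripts 58.4%, so these small counts say nothing particular about the match. Among paralogs with half-lives for both genes, *Usp4* was longer-lived than *Usp15* in both lines, *Usp16* longer-lived than *Usp45*, and *Usp47* longer-lived than *Usp7*. The 3′ UTR of *Usp4* held 1 match and that of *Usp15* 6, that of *Usp16* none and that of *Usp45* 6, and those of *Usp7* and *Usp47* none. In the first 2 pairs the longer-lived mRNA was the one with fewer matches and the shorter 3′ UTR. The 3′ UTR had 708 bases in *Usp4* and 8499 in *Usp15*, and 286 in *Usp16* and 3505 in *Usp45*. Per kilobase, *Usp4* held more matches than *Usp15*, at 1.41 and 0.706, and *Usp45* held 1.71. The longest annotated 3′ UTR of *Usp7* held 1 match. FPKM was higher for *Usp4* than for *Usp15* and for *Usp16* than for *Usp45*, but lower for *Usp47* than for *Usp7*, in both lines. Over all members, 5 share exonic bases with another gene on the same strand and 19 with one on the opposite strand.

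Deubiquitinases of other symbols were measured alongside. Of 22 such genes with FPKM, 14 were lower in the TAG/TAG line, 1 was over 2-fold higher and 2 over 2-fold lower, beside 49.5%, 13.5% and 9.59% of all genes. The former was *Stambpl1*, with 0.309 FPKM in the TAG/+ line, from 6 reads, and 2.44 in the TAG/TAG line, from 51 reads. The latter were *Psmd14*, described above, and *Zranb1*, with 15.6 and 7.23 FPKM. Their median log2 FPKM ratio was -0.13, and the median half-life of the 10 with values was 256 min in the TAG/+ line and 217 min in the TAG/TAG line. *Bap1*, which removes ubiquitin from H2A, was the most abundant of them at 160.2 and 159 FPKM, a level like that of *Usp21*. The signalosome gene *Cops5* had 54.7 and 31.8 FPKM and half-lives of 379 and 381 min. *Mindy3* had half-lives of 248 min in the TAG/+ line and 69.1 min in the TAG/TAG line, and *Gmps*, which encodes a partner of USP7, had 279 and 113 min. None of the 22 reached the level of *Usp7*, *Usp19*, *Usp22* or *Uchl1*.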

How the data were processed

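Tables of 2 SSC lines were analysed. FPKM values were deposited by the authors, and the submitters' processing notes name kallisto for the RNA-seq samples and also DESeq2, without versions. FPKM and gene lengths (mean length of annotated transcripts, GENCODE M21) gave whole reads within 0.02 for 99.9% of genes. The half-lives, in minutes, were deposited as fitted by the authors with SlamDunk and the R function nls, after technical replicates had been collapsed, and their filter is not given in the sources used here. Table columns and files were mapped to the lines by name. CRAC samples were not analysed here, and some genes of the ubiquitin list are not reported here.

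Members and gene lists were chosen with earlier results of these data known. For calls, 0.1 was added to each FPKM before log2. With 1 library or fit per line no test was made, and calls are past 2-fold for FPKM and 1.5-fold for half-life. FPKM ratio intervals are exact (Clopper-Pearson) binomial intervals of the reads. Every member was described, in full for the Uchl, Otub and Otud genes, members with listed roles, the 10 highest FPKM, the 8 longest and 8 shortest half-lives, members past a limit and paralogs with half-lives. Genes outside these rules were chosen after their values were seen. The 3′ UTR was that of the APPRIS principal transcript, or the longest, on GRCm38. Alternatives were other pseudocounts, limits and filters, centring, and the longest 3′ UTR, and 1 without *Usp6nl* was chosen after seeing the data. Read recovery and calls were tested on simulated data. Python 3.11.15, numpy 2.4.6, pandas 2.3.3, scipy 1.17.1, pysam 0.24.0 and matplotlib 3.10.9 were used.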

Additional observations from a re-analysis of the deposited data

How the results depend on the processing

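Of 57 values recomputed under alternatives for 12 results, 50 stayed within the limits set for them and 7 moved. With a pseudocount of 1, the members over 2-fold lower in FPKM numbered 1 in place of 2. With FPKM of at least 1 required in both lines, the members over 2-fold higher numbered 0 in place of 1, since *Usp43* was under 1 in the TAG/+ line. With a ratio limit of 1.5, there were 3 members higher (*Usp43*, *Usp53* and *Usp46*) and 7 lower (*Usp26*, *Otud3*, *Uchl5*, *Usp4*, *Usp11*, *Usp47* and *Usp33*) in FPKM. With a ratio limit of 2, there were 0 members with a longer half-life in the TAG/TAG line and 1 with a shorter one, *Usp54*. Without *Usp6nl*, an alternative chosen after seeing the data, the median half-life of the members in the TAG/TAG line was 236 min in place of 229.9 min. Spearman's rho of half-life and FPKM lay between 0.467 and 0.515 in the other settings. No paired analysis was possible because each line had 1 library and 1 fitted half-life per transcript. FPKM of members under 50 reads (*Usp13* and *Usp17lc*) cannot show differences of the size described. The depth behind the half-lives is unknown.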
